A study of Mus musculus with 12 samples.

Results

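The collagen genes of the mouse were followed on single-colour Agilent arrays in C2C12, a line of myoblasts able to fuse into myotubes. Members were all genes on the arrays whose mouse symbol, reached through the transcript accession of the probe, had the form Col, number, a, number. The arrays held 63 probes for 43 such genes, and for 45 of them at least 1 of the 4 groups had all of its arrays well above background. These 45 probes belonged to 35 genes, out of 24573 genes with a probe that passed the same filter, with the brightest probe standing for the gene. Of the 35 collagen genes, 28 passed the filter in all 4 groups, 5 in 2 or 3 groups and 2 in a single group. Col10a1 passed only through siRNA and Col26a1 only through pcDNA3.1-MEG3.

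The other 8 genes, Col6a5, Col6a6, Col9a3, Col13a1, Col15a1, Col19a1, Col22a1 and Col28a1, had no probe that passed. The nearest to the filter was Col15a1, with 1 probe that passed on 2 of 3 negative control arrays and another on 2 of 3 arrays of each plasmid group. Just inside it, Col26a1 was well above background on 3 of 3 pcDNA3.1-MEG3 arrays, 2 of 3 pcDNA3.1 arrays, 1 of 3 negative control arrays and 0 of 3 siRNA arrays. No probe on the arrays was matched to Col12a1.

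Cells were harvested 72 h after transfection, with 3 arrays for each of 4 groups named in the labels: siRNA, pcDNA3.1-MEG3, pcDNA3.1 and negative control. By the titles the pcDNA3.1-MEG3 plasmid is meant to overexpress, and the siRNA to knock down, MEG3, a long non-coding RNA of the imprinted Dlk1-Dio3 locus, and the study asked what raising or lowering it does to expression in these cells. All groups carried a transfection, pcDNA3.1 was taken here to be the plasmid without insert, and what the negative control consisted of is not stated. Replicates 1 and 3 of each group were averaged and counted as 1 sample, so that each group had 2 samples, and the labels do not say whether these came from separate cultures, so that the p-values rest on a spread that may be technical.

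Collagens are secreted proteins in which chains rich in glycine wind around each other into a rope-like helix. Fibrillar collagens assemble into the fibres that give connective tissue its tensile strength, network collagens such as type IV and type VIII form sheets, and type VI forms beaded filaments around cells. In skeletal muscle, types I, III and VI fill the connective tissue between the fibres, and type IV is the scaffold of the basement membrane that surrounds each fibre. Each chain is hydroxylated, folded by chaperones such as Serpinh1, trimmed outside the cell and cross-linked by lysyl oxidases.

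Facts of the arrays bear on every value here. The share of probes well above background ran from 62.0% to 75.9% over the arrays, and 0 spots were saturated. In the siRNA group and both plasmid groups, replicates 1 and 3 lay at the same slide position in different scans and differed by 0.0927 to 0.238 times the spot noise within an array. The brightest Meg3 probe went against the plasmid labels: its mean was -2.43 on the arrays labelled pcDNA3.1, well above background on 3 of 3, and -7.17 on those labelled pcDNA3.1-MEG3, on 0 of 3. That difference was at least 18.9-fold toward the arrays labelled pcDNA3.1 and did not pass the test (limma, adjusted p = 0.0840). Of the negative control arrays 1 of 3, and of the siRNA arrays 0 of 3, had this probe above background, so groups are called here by their labels and no direction is drawn from the amount of Meg3. Another Meg3 probe took the same side, at -4.31, -3.68 and -4.36 on the pcDNA3.1 arrays and -7.87, -7.43 and -7.83 on the pcDNA3.1-MEG3 arrays. It was well above background on 3 of 3 and 0 of 3 of these, and the remaining Meg3 probe on no array. Per the file headers the negative control, the plasmids and siRNA were scanned at different times, so for every comparison but that of the plasmids the scan and the group cannot be told apart. The spot deviations of siRNA replicate 2 went against this grouping: they correlated at 0.518 to 0.547 with the negative control arrays and at -0.292 to -0.274 with the other siRNA arrays. Without this array the collagen genes called numbered 7 for siRNA against the negative control and 16 for siRNA against the plasmids, beside 10 and 19 with it.

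Signals are given as log2 values with the 75th percentile of each array at 0, and a gene is called higher or lower where the Benjamini-Hochberg adjusted p of limma's moderated test over all 24519 genes tested was under 0.05. Values of a gene are listed with the average of replicates 1 and 3 first and replicate 2 after it. Levels were not compared between genes, since each rests on its own probe. Fewer cells of a kind and less RNA per cell cannot be told apart in such bulk samples.

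In the mean of both plasmid groups 11 collagen genes were lower and 1 was higher than in the negative control, 12 of 35 called. Of all genes tested 21.8% were called in this comparison, 13.3% higher and 8.54% lower. The median collagen difference was -0.24, beside 0.18 over all genes. Centring arrays on their median in place of the 75th percentile moved the median of all genes by -0.42, to -0.23, with 17 collagen genes then lower and 0 higher. With only the compared groups in the fit 11 were lower and 7 higher. With 12 arrays as 12 samples 15 were lower and 6 higher. The count fell to 7 without replicates 1 and 3 of pcDNA3.1 or of pcDNA3.1-MEG3, and to 6 without pcDNA3.1-MEG3 replicate 2.

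With siRNA, 7 collagen genes were higher and 3 lower than in the negative control, 10 of 35, where 12.4% of all genes were called, 7.75% higher and 4.64% lower. The median was 0.23, beside 0.06 over all genes. Median centring moved the latter by -0.19 and left 4 higher and 3 lower. The count fell to 6 without either pcDNA3.1 sample and to 5 without either pcDNA3.1-MEG3 sample, rose to 18 without replicates 1 and 3 of the negative control, and was 1 where only the arrays of these 2 groups entered the fit.

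Set against the plasmid groups, siRNA gave 17 higher and 2 lower collagen genes, 19 of 35, where 18.7% of all genes were called, 10.6% higher and 8.15% lower. The median was 0.48, beside -0.11 over all genes, and median centring moved the latter by 0.23 with 17 higher and 2 lower as before. The count fell to 8 without pcDNA3.1-MEG3 replicate 2, to 10 without its replicates 1 and 3 and to 12 without pcDNA3.1 replicate 2. The 3 comparisons share samples with each other, so their values stand side by side and are no independent support for each other.

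Between pcDNA3.1-MEG3 and pcDNA3.1, 0 of 35 collagen genes were called by limma, where 0.00816% of all genes were called, and the lowest adjusted p of a member was 0.441. At an unadjusted p under 0.05, 2 members and 10.2% of all genes passed. Member differences ran from -0.75 (Col8a1) to 0.30 (Col9a1) with SE of 0.14 to 0.79, and 20 of 35 lay below the median of all genes, -0.16. Without replicates 1 and 3, or without replicate 2, of the negative control 2 members were called, Col6a3 (-0.59) and Col11a1 (-0.56). In the first of the scans of the plasmid arrays 3 were called: Col4a3 (-0.58), Col6a3 (-0.57) and Col11a1 (-0.56).

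**Figure D1:**
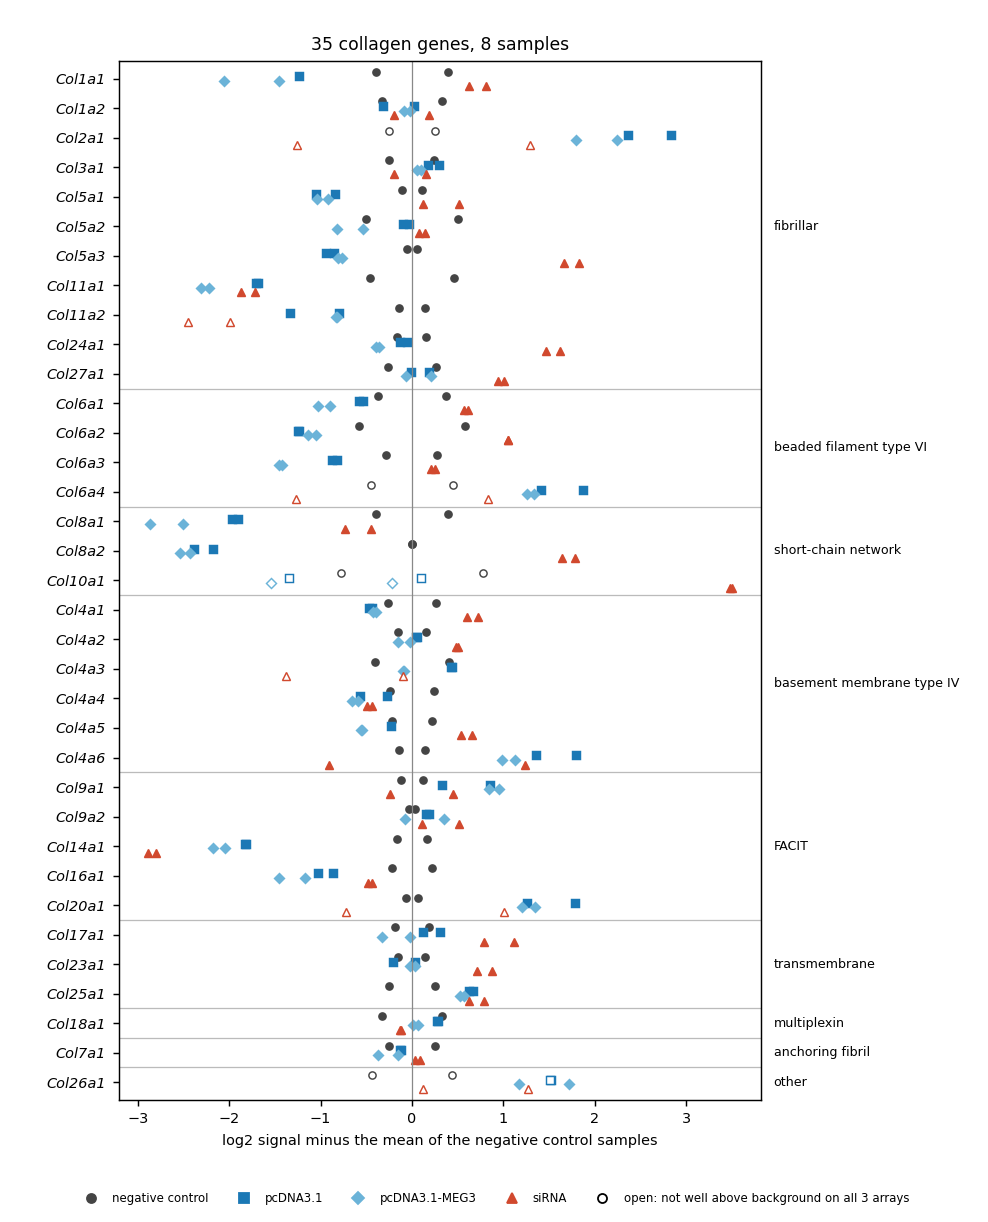
Signals of the 35 collagen genes in 8 samples, as the log2 signal minus the mean of the 2 negative control samples (horizontal axis), with genes ordered by class. Filled points are groups in which all 3 arrays were well above background. The plasmid samples lie to the left of the negative control for Col8a1, Col8a2, Col11a1 and Col14a1, and the siRNA samples lie to the right for Col5a3, Col8a2, Col24a1 and Col10a1.

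On their brightest probes all 3 short-chain network collagens were called in siRNA against the plasmids, but Col10a1 passed the filter only through siRNA. Type VIII is made of the chains Col8a1 and Col8a2 and forms hexagonal lattices, for example under the endothelium, and type X, the Col10a1 chain, is best known from the hypertrophic cartilage of growth plates. The stretches of DNA just before their transcription starts are shown because these chains belong to 1 class. Sequences are from RefSeq on GRCm38.p6, a later build than the mm9 named in the array files, and run 5′ to 3′ on the strand of the gene. Capitals mark GGGCGG and CCAAT on either strand, so that CCGCCC and ATTGG are marked too, and overlapping matches are counted separately.
Col8a1, chr16:57754738-57754987, minus strand: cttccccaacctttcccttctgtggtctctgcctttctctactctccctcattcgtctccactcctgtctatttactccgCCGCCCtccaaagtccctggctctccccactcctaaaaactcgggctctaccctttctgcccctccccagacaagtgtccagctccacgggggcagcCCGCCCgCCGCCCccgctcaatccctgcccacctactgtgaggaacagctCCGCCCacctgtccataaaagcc
Col8a2, chr4:126286544-126286793, plus strand: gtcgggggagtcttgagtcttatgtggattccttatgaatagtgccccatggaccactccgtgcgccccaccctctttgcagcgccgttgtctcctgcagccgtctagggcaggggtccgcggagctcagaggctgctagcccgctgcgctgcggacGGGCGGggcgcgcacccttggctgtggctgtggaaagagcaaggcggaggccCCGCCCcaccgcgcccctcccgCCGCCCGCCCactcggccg
Col10a1, chr10:34389731-34389980, plus strand: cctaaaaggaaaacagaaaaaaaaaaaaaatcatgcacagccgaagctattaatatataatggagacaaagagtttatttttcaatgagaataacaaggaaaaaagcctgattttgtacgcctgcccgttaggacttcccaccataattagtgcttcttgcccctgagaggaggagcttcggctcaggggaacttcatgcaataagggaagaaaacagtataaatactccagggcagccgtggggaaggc
Each of the Col8a1 and Col8a2 windows held 4 GGGCGG matches, and that of Col10a1 held none of the motifs searched.

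Col8a2 gave -2.48 and -2.49 in the negative control, -4.66 and -4.87 with pcDNA3.1, -5.02 and -4.91 with pcDNA3.1-MEG3, and -0.70 and -0.84 with siRNA. The plasmid samples were lowest, the siRNA samples highest, and the 3 sets of samples did not overlap. It was lower in the plasmids than in the negative control by -2.38 ± 0.12 (SE, 2 samples a group; limma, adjusted p = 0.00037). It was higher with siRNA by 1.72 ± 0.14 against the negative control (adjusted p = 0.00243, limma) and by 4.10 ± 0.12 against the plasmids (adjusted p = 8.69e-05, limma). The other Col8a2 probe that passed the filter did not follow. It gave -4.01 and -4.17 in the negative control, -2.55 and -3.12 with pcDNA3.1, -3.18 and -3.73 with pcDNA3.1-MEG3, and -3.15 and -3.36 with siRNA. On that probe the plasmids were higher than the negative control by 0.94 (limma, adjusted p = 0.0398), and siRNA and plasmids differed by -0.11 (adjusted p = 0.745, limma). With both probes averaged the difference of Col8a2 was -0.72 for the plasmids against the negative control and 1.99 for siRNA against the plasmids, both still called. The direction of Col8a2 in the plasmids therefore depended on the probe.

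Col8a1 gave 4.39 and 3.59 in the negative control, 2.09 and 2.02 with pcDNA3.1, 1.48 and 1.12 with pcDNA3.1-MEG3, and 3.54 and 3.26 with siRNA. The plasmid samples lay below all others, and the siRNA samples lay just below the lower negative control sample. The plasmids were lower than the negative control by -2.31 ± 0.25 (limma, adjusted p = 0.00409), and siRNA was higher than the plasmids by 1.72 ± 0.25 (adjusted p = 0.00904). Against the negative control Col8a1 stood at -0.59 ± 0.29 with siRNA and was not called (limma, adjusted p = 0.252). Between the plasmids it had the largest difference of all members, -0.75 ± 0.29, not called either (limma, adjusted p = 0.484).

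Col10a1 gave -4.10 and -4.08 with siRNA, where 3 of 3 arrays were well above background. It gave -6.81 and -8.35 in the negative control, on 1 of 3 arrays, -8.92 and -7.49 with pcDNA3.1 and -7.80 and -9.12 with pcDNA3.1-MEG3, on 0 of 3 arrays each. Because the dimmer signals lay near background, the difference is given as a bound, computed from the higher of the probe's own signal and the dimmest signal well above background on each array. Col10a1 was at least 6.11-fold higher with siRNA than with the plasmids (limma, adjusted p = 0.00958) and at least 5.90-fold higher than in the negative control (adjusted p = 0.0358). The gene passed the filter only through siRNA, so that its presence among the members and this difference are not separate facts. The fitted difference from the negative control, 3.49, was 4.26 without replicates 1 and 3 of that group and 2.72, no longer called, without its replicate 2, and the call held in 9 of 19 alternative settings.

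**Figure D2:**
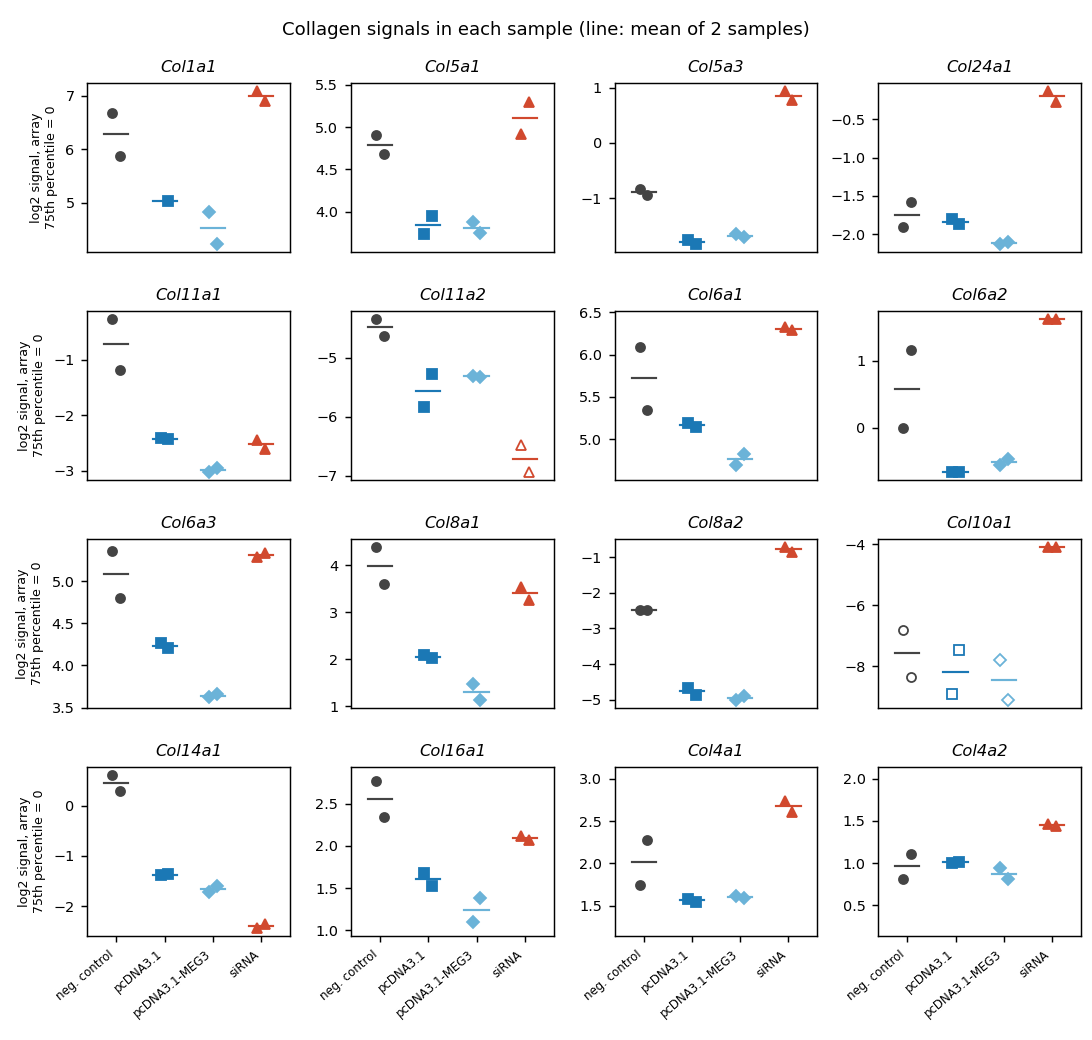
Log2 signal of 16 collagen genes in each of the 4 groups, with the 75th percentile of the array at 0 (vertical axis, a separate range for each gene), 2 samples a group and a line at their mean; Col1a1 has 1 pcDNA3.1 sample. Open points are groups in which not all arrays were well above background. Col14a1 and Col11a1 are highest in the negative control, and Col5a3, Col24a1, Col8a2 and Col10a1 are highest with siRNA.

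Among the 11 fibrillar collagens 5 were lower and 0 higher in the plasmids than in the negative control. With siRNA 3 were higher and 2 lower than in the negative control, and 5 were higher and 1 lower than in the plasmids. In the same order 21.8%, 12.4% and 18.7% of all genes were called in these comparisons. Type V chains join the type I fibril and limit its width, and Col5a3 is the least widespread of them. Types XXIV and XXVII, the chains Col24a1 and Col27a1, are fibrillar collagens of the developing skeleton, and type XI, with the chains Col11a1 and Col11a2, forms thin fibrils in cartilage. The windows before the starts of Col5a3, Col24a1 and Col11a1 are shown since these fibrillar chains differed most from the negative control with siRNA among those with a window and with all groups measured.
Col5a3, chr9:20815068-20815317, minus strand: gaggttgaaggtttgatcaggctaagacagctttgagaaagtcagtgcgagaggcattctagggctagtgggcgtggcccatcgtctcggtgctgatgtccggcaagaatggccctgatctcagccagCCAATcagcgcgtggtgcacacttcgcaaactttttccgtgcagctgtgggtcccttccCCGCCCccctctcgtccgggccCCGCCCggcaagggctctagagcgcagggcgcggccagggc
Col24a1, chr3:145292222-145292471, plus strand: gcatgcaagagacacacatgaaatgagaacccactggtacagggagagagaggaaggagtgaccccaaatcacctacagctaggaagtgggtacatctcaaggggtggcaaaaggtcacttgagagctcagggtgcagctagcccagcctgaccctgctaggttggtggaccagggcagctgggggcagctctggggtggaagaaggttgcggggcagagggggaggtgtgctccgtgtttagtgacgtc
Col11a1, chr3:114030290-114030539, plus strand: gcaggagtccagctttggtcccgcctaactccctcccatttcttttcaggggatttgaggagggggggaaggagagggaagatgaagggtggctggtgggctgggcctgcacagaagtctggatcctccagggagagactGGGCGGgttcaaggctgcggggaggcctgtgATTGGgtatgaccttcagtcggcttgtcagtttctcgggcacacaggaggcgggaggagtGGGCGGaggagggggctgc
The Col5a3 and Col11a1 windows each held 1 CCAAT match and 2 GGGCGG matches, and that of Col24a1 held neither.

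Col5a3 gave -0.84 and -0.94 in the negative control, -1.75 and -1.83 with pcDNA3.1, -1.65 and -1.70 with pcDNA3.1-MEG3, and 0.94 and 0.77 with siRNA. The siRNA samples were the highest and the plasmid samples the lowest, with no overlap. It was lower in the plasmids by -0.84 ± 0.12 (limma, adjusted p = 0.00822), higher with siRNA by 1.75 ± 0.14 against the negative control (adjusted p = 0.00209) and by 2.59 ± 0.12 against the plasmids (adjusted p = 0.000235). Its chain partner Col5a1 gave 4.90 and 4.68 in the negative control, 3.74 and 3.95 with pcDNA3.1, 3.87 and 3.75 with pcDNA3.1-MEG3, and 4.91 and 5.30 with siRNA. Here the plasmid samples were again lowest, while the ranges of the siRNA and negative control arrays overlapped. Col5a1 was lower in the plasmids by -0.97 ± 0.17 (limma, adjusted p = 0.0142) and higher with siRNA than with the plasmids by 1.28 ± 0.17 (adjusted p = 0.00598). Col5a2, the third chain, gave 2.56 and 1.54 in the negative control, 2.02 and 1.95 with pcDNA3.1, 1.51 and 1.23 with pcDNA3.1-MEG3, and 2.19 and 2.13 with siRNA. It was called in none of the comparisons, with -0.37 ± 0.29 for the plasmids against the negative control and 0.48 ± 0.29 for siRNA against the plasmids.

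Type I collagen is the main fibre of tendon, bone and the connective tissue of muscle, and its chains Col1a1 and Col1a2 did not give the same picture. Col1a1 gave 6.68 and 5.88 in the negative control, 5.04 in the single pcDNA3.1 sample with a usable spot, 4.82 and 4.22 with pcDNA3.1-MEG3, and 7.09 and 6.90 with siRNA. The plasmid samples lay below the negative control and the siRNA samples above it. Col1a1 was lower in the plasmids by -1.50 ± 0.33 (limma, adjusted p = 0.0356) and higher with siRNA than with the plasmids by 2.21 ± 0.33 (adjusted p = 0.0141), and its 0.72 ± 0.35 between siRNA and the negative control was not called. The spot was marked as not uniform on pcDNA3.1 replicates 1 and 3, and with such spots kept the 2 called differences were -1.76 (limma, adjusted p = 0.0263) and 2.40 (limma, adjusted p = 0.0115). The call of the plasmids against the negative control was present in 15 of 19 alternative settings. That of siRNA against the plasmids was present in 18 of 19. Col1a2 gave 6.97 and 6.32, 6.33 and 6.66, 6.63 and 6.56, and 6.45 and 6.83 in the order of groups used above, with every group overlapping another. Its differences were -0.10 ± 0.23 for the plasmids against the negative control and 0.09 ± 0.23 for siRNA against the plasmids, not called. Col3a1, the chain of type III collagen that accompanies type I in soft tissue, had the narrowest span of the 35, from 6.70 to 7.24 over the 8 samples, and was called nowhere.

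Col24a1 gave -1.90 and -1.58 in the negative control, -1.80 and -1.87 with pcDNA3.1, -2.13 and -2.11 with pcDNA3.1-MEG3, and -0.13 and -0.27 with siRNA. The siRNA samples stood apart from the other 6. It was higher with siRNA by 1.54 ± 0.16 against the negative control (limma, adjusted p = 0.00466) and by 1.78 ± 0.14 against the plasmids (adjusted p = 0.00112). Col27a1 gave -5.10 and -4.56 in the negative control, -4.64 and -4.85 with pcDNA3.1, -4.90 and -4.62 with pcDNA3.1-MEG3, and -3.82 and -3.89 with siRNA. It too was highest with siRNA, by 0.97 ± 0.22 against the negative control (limma, adjusted p = 0.0437) and 0.89 ± 0.19 against the plasmids (adjusted p = 0.0282). The first of these calls held in 7 of 20 alternative settings and was lost under median centring (adjusted p = 0.0847, limma), and the second held in 14 of 20.

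The type XI chains went the other way. Col11a1 gave -0.27 and -1.18 in the negative control, -2.41 and -2.43 with pcDNA3.1, -3.03 and -2.95 with pcDNA3.1-MEG3, and -2.45 and -2.60 with siRNA. The negative control samples were highest, and the siRNA samples fell between those of the plasmids. Col11a1 was lower than in the negative control by -1.98 ± 0.26 in the plasmids (limma, adjusted p = 0.00652) and by -1.80 ± 0.30 with siRNA (adjusted p = 0.0188), and siRNA against the plasmids gave 0.18 ± 0.26, not called. Col11a2 gave -4.35 and -4.64 in the negative control, -5.83 and -5.29 with pcDNA3.1, -5.32 and -5.32 with pcDNA3.1-MEG3, and -6.48 and -6.94 with siRNA, where 0 of 3 arrays were well above background. It was lower in the plasmids than in the negative control by -0.95 ± 0.22 (limma, adjusted p = 0.0321). With siRNA it was at least 3.74-fold lower than in the negative control (limma, adjusted p = 0.00637) and at least 1.94-fold lower than in the plasmids (adjusted p = 0.0146). The Col11a2 calls held in 12 of 19 alternative settings for the plasmids against the negative control, 16 of 19 for siRNA against the negative control and 13 of 19 for siRNA against the plasmids. All 3 were lost with normexp background correction, which gave -0.24 for the plasmids, -0.24 for siRNA against the negative control and 0.00335 for siRNA against the plasmids.

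Col2a1, the chain of cartilage type II collagen, was well above background on 3 of 3 arrays of each plasmid group and on 0 of 3 of the negative control and of siRNA. It was at least 4.0-fold higher in the plasmids than in the negative control (limma, adjusted p = 0.0614) and at least 3.0-fold lower with siRNA than in the plasmids (adjusted p = 0.0681), neither passing the test. Col2a1 passed the filter only through the plasmid groups, so that its membership and these differences are not separate facts.

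Type VI collagen is built from Col6a1, Col6a2 and Col6a3 chains in skeletal muscle, and loss of any of these chains causes muscle disease. Col6a2 gave -0.01 and 1.16 in the negative control, -0.66 and -0.67 with pcDNA3.1, -0.56 and -0.48 with pcDNA3.1-MEG3, and 1.63 and 1.63 with siRNA. The 4 plasmid samples lay close together below all others. It was lower in the plasmids by -1.17 ± 0.31 (limma, adjusted p = 0.0476) and higher with siRNA than with the plasmids by 2.22 ± 0.31 (adjusted p = 0.00786), and its 1.05 ± 0.36 between siRNA and the negative control was not called (adjusted p = 0.118). The negative control samples of Col6a2 were far apart: the plasmid difference was -1.75 without replicates 1 and 3 of that group and -0.58 without replicate 2. That call was present in 14 of 20 alternative settings and was lost without any 1 of the 4 plasmid samples.

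Col6a3 gave 5.36 and 4.80 in the negative control, 4.26 and 4.20 with pcDNA3.1, 3.63 and 3.66 with pcDNA3.1-MEG3, and 5.29 and 5.33 with siRNA. The plasmid samples were lower than the others, and the siRNA samples fell between those of the negative control. The differences were -1.14 ± 0.18 for the plasmids against the negative control (limma, adjusted p = 0.0107) and 1.37 ± 0.18 for siRNA against the plasmids (adjusted p = 0.00589). Col6a1 gave 6.09 and 5.35 in the negative control, 5.19 and 5.14 with pcDNA3.1, 4.70 and 4.82 with pcDNA3.1-MEG3, and 6.33 and 6.29 with siRNA. The plasmid samples were again lowest, and the siRNA samples lay above both negative control samples. The differences were 1.35 ± 0.22 for siRNA against the plasmids (limma, adjusted p = 0.0119) and -0.76 ± 0.22 for the plasmids against the negative control, which missed the threshold (adjusted p = 0.0563). Col6a4, which is not among the muscle-disease chains, gave -6.23 and -7.12, -4.80 and -5.26, -5.42 and -5.33, and -7.95 and -5.84 in the same order of groups, was well above background on all arrays only with the plasmids, and was called nowhere.

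On their brightest probes, chains of type IV collagen, the network of the basement membrane, were called only where siRNA was set against the plasmids. Col4a1 was higher there by 1.09 ± 0.17 (limma, adjusted p = 0.0113), Col4a5 by 0.98 ± 0.18 (adjusted p = 0.0264) and Col4a2 by 0.51 ± 0.13 (adjusted p = 0.048). Of Col4a5 a single pcDNA3.1 sample had a usable spot, and with marked spots kept its difference was 1.14 (limma, adjusted p = 0.0431). The Col4a2 call was present in 9 of 20 alternative settings. Against the negative control the siRNA differences of Col4a1 and Col4a2 were 0.66 ± 0.20 and 0.49 ± 0.15, not called. The remaining type IV chains, Col4a3, Col4a4 and Col4a6, which are found in more specialised basement membranes, were not called in any comparison on the brightest probe. The other Col4a4 probe was higher in the plasmids than in the negative control by 0.52 (limma, adjusted p = 0.0476), where the brightest gave -0.52. The siRNA samples of Col4a6 disagreed, at 0.14 and 2.28 on the brightest probe. Its other probe gave -2.99 and -3.09 with siRNA and a difference of 1.05 from the plasmids (limma, adjusted p = 0.0249), where the brightest probe gave -1.15 and was not called.

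Collagens of the group that sits on fibrils with interrupted helices are known as FACIT. Col14a1, the type XIV chain that binds fibrils of tendon and skin, gave 0.61 and 0.29 in the negative control, -1.38 and -1.37 with pcDNA3.1, -1.73 and -1.60 with pcDNA3.1-MEG3, and -2.44 and -2.35 with siRNA. The negative control samples were highest and the siRNA samples lowest, and these 3 sets did not overlap. Col14a1 was lower than in the negative control by -2.85 ± 0.16 with siRNA (limma, adjusted p = 0.000747), the largest fall of a member with signal in every group, and by -1.97 ± 0.14 in the plasmids (adjusted p = 0.000966). It was lower with siRNA than with the plasmids by -0.88 ± 0.14 (limma, adjusted p = 0.0109). The other Col14a1 probe gave smaller differences in the same direction, -1.18 for siRNA and -0.81 for the plasmids against the negative control, both called, and -0.37 for siRNA against the plasmids, not called.

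Col16a1, the other FACIT chain called, is found on fibrils of skin and cartilage. It was lower in the plasmids than in the negative control by -1.13 ± 0.17 (limma, adjusted p = 0.0102) and higher with siRNA than in the plasmids by 0.67 ± 0.17 (adjusted p = 0.0455), and its other probe gave -1.81 and 0.99, both called. The call of siRNA against the plasmids was present in 11 of 20 alternative settings. Col9a1, Col9a2 and Col20a1 were called in no comparison on their brightest probes. Col20a1 lay at 1.40 ± 0.47 in the plasmids against the negative control (limma, adjusted p = 0.0834). Its other probe was called in the plasmids against the negative control (adjusted p = 0.0203, limma) and in siRNA against the plasmids (adjusted p = 0.0118), but it was well above background only on the 3 pcDNA3.1-MEG3 arrays, so that no fold is given.

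The transmembrane collagens Col17a1, of the hemidesmosome, and Col23a1 were both higher with siRNA. Col17a1 differed by 0.95 ± 0.21 from the negative control (limma, adjusted p = 0.0427) and by 0.93 ± 0.19 from the plasmids (adjusted p = 0.0227). Col23a1 differed by 0.79 ± 0.17 (adjusted p = 0.0377, limma) and 0.83 ± 0.15 (adjusted p = 0.0158), and its other probe gave 0.80, not called, and 0.85, called. The calls against the negative control held in 6 of 20 alternative settings for Col17a1 and 9 of 20 for Col23a1, and both were lost under median centring (adjusted p = 0.0670 and 0.0846, limma).

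Col25a1, a neuronal collagen that muscle also makes and that motor axons need to enter muscle, had 3 probes that passed, and they disagreed. The brightest gave -3.87 and -4.37 in the negative control, -3.45 and -3.49 with pcDNA3.1, -3.55 and -3.59 with pcDNA3.1-MEG3, and -3.33 and -3.49 with siRNA, and was not called. Another gave -2.34 and -2.78 with pcDNA3.1 and -4.17 and -3.88 with pcDNA3.1-MEG3, well above background on 3 of 3 arrays each, and -8.38 and -9.03 in the negative control, on 0 of 3. It was at least 10.5-fold higher in the plasmids than in the negative control (limma, adjusted p = 0.00851). With siRNA, at -5.33 and -8.22 and on 2 of 3 arrays, it was at least 6.92-fold lower than in the plasmids (limma, adjusted p = 0.0294). The third probe was at least 2.33-fold higher with siRNA than in the negative control (limma, adjusted p = 0.0293). It passed the filter only through siRNA, with 3 of 3 arrays. Each plasmid group had 2 of 3 arrays above that limit and the negative control 0 of 3. Its being kept and its rise with siRNA are therefore not separate facts. The probe before it passed only through the plasmid groups, so that the same holds for its differences. No statement on Col25a1 as a whole follows from these probes.

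**Figure D3:**
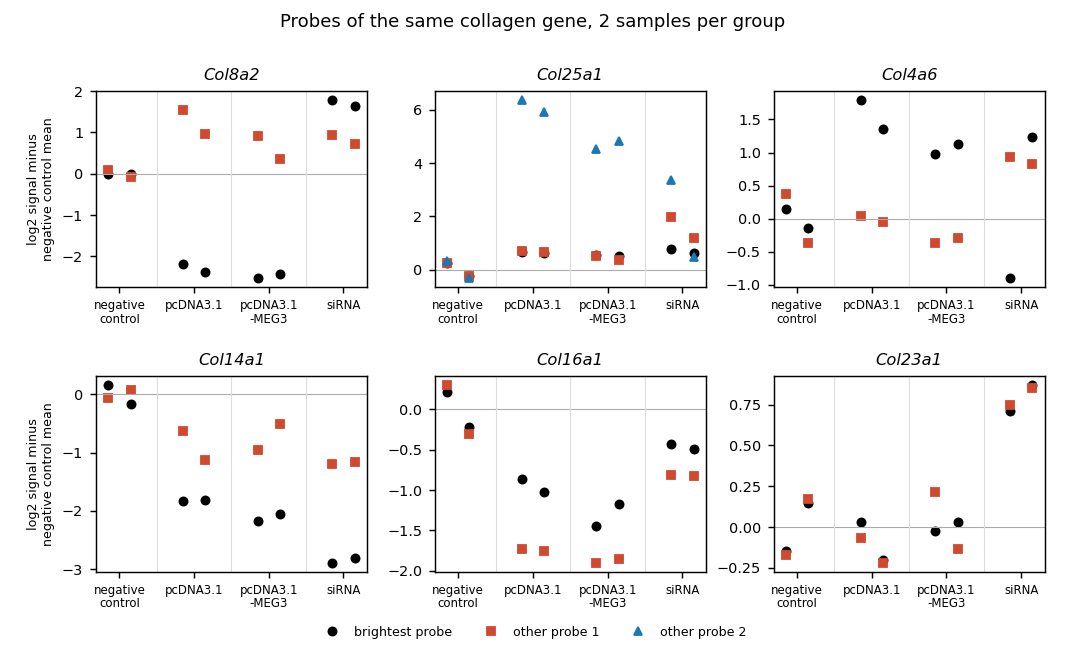
Probes of 6 collagen genes in 8 samples, as log2 signal minus the mean of that probe's negative control samples (vertical axis), with the brightest probe as circles. The Col8a2 probes take opposite directions in the plasmid groups, 1 of the 3 Col25a1 probes stands far above its negative control mean in every plasmid sample, and the probes of Col14a1, Col16a1 and Col23a1 run the same way.

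Col26a1 was the one member higher in the plasmids than in the negative control. It gave -7.30 and -8.17 in the negative control, -6.21 and -6.22 with pcDNA3.1, -6.57 and -6.02 with pcDNA3.1-MEG3, and -6.47 and -7.61 with siRNA. These signals lie near background, so that only a bound of 1.26-fold higher can be given (limma, adjusted p = 0.0489), and the call held in 5 of 19 alternative settings. Col26a1 passed the filter only through pcDNA3.1-MEG3, so that its membership and this difference are not separate facts. Col7a1, the anchoring fibril chain of skin, and Col18a1, whose C-terminal fragment is endostatin, were called in no comparison. Col7a1 spanned -3.33 to -2.70 over the 8 samples and Col18a1 spanned 2.07 to 2.72.

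**Figure D4:**
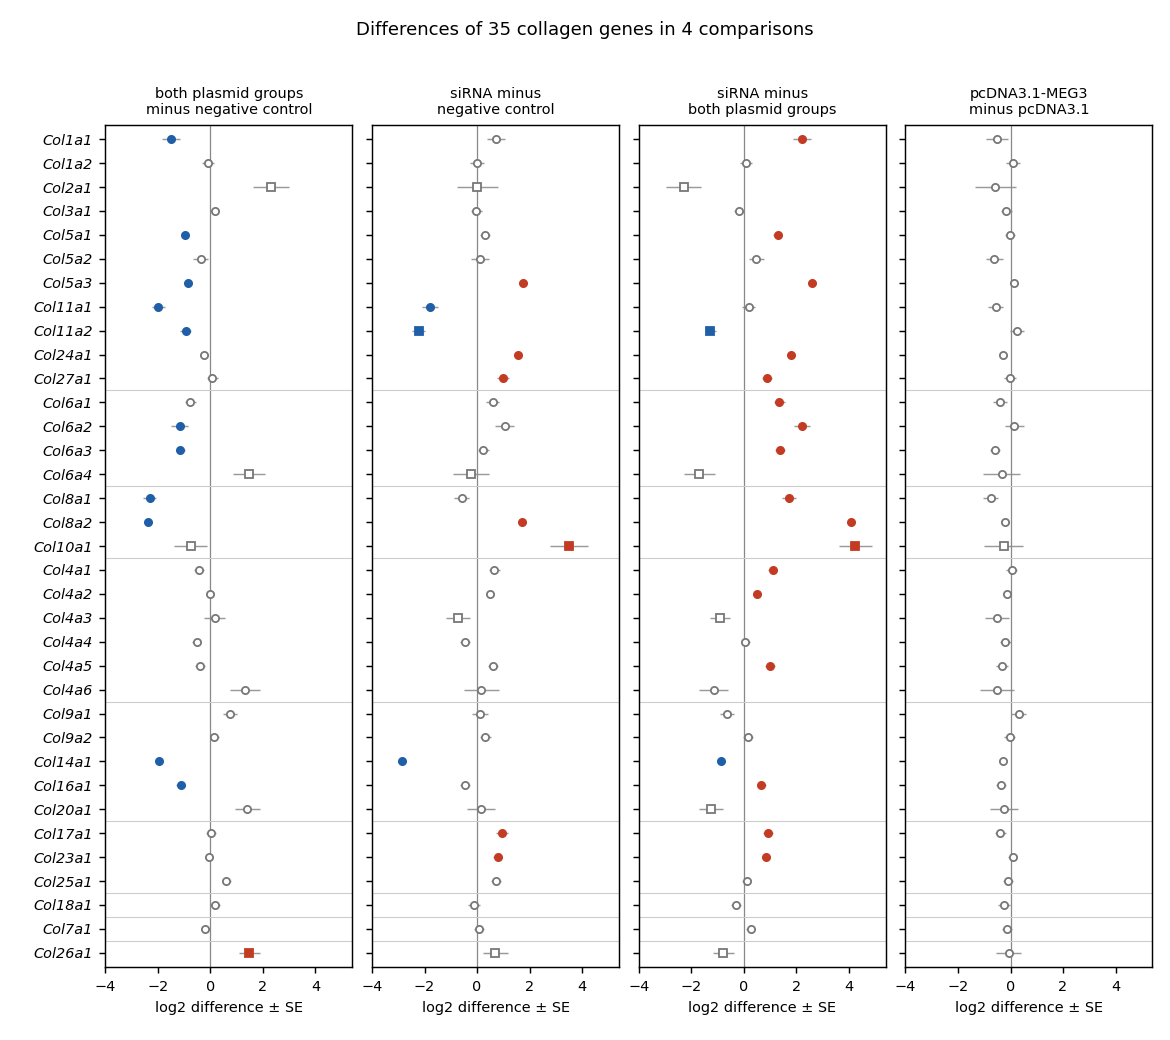
Log2 differences ± SE of the 35 collagen genes in 4 comparisons (horizontal axis). Filled points are genes called at an adjusted p under 0.05 by limma, red for higher and blue for lower. Squares mark differences whose dimmer side was not well above background on all its arrays. In the plasmids against the negative control 11 of 12 called genes are lower, and with siRNA against the plasmids 17 of 19 are higher.

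Over the alternative settings, the calls of Col5a3, Col8a1, Col8a2, Col11a1, Col14a1 and Col16a1 in the plasmids against the negative control were present each time they were tested. The same held for Col5a1, Col5a3, Col6a2, Col6a3, Col8a1, Col8a2 and Col24a1 in siRNA against the plasmids, and for Col10a1, which is a member only through its siRNA signal. No alternative used the other Col8a2 probe alone, which gave 0.94 in the plasmids against the negative control and -0.11 in siRNA against the plasmids. The Col8a2 calls are therefore not stable over its probes. In siRNA against the negative control, Col14a1 alone was called in every alternative, and the other 9 were lost in at least 1.

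Motif letters were counted in the promoters. Of the 35 members 29 had a RefSeq window of 250 bases before the start. GGGCGG was present on either strand in 19 of 29 (65.5%), beside 35.4% of 27025 genes with such a window. GGGAGG was present in 23 (79.3%, beside 40.4%), CCAAT in 13 (44.8%, beside 37.5%), and CANNTG, the E-box letters bound by myogenic factors such as Myod1, in 14 (48.3%, beside 69.3%). These are counts of letters only, and base composition was not matched.

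Genes that modify, carry, bind or cross-link collagens were read from the same fit, on 7 lists with 85 genes, of which 74 were measured. In the plasmids against the negative control 4 were higher and 21 lower, with a median of -0.36, and with siRNA against the plasmids 22 were higher and 1 lower, with a median of 0.29. With siRNA against the negative control 10 were higher and 5 lower, with a median of 0.03, and between the plasmids 0 were called by limma and 11 had an unadjusted p under 0.05, with a median of -0.16. Over all genes 13.3% were higher and 8.54% lower in the plasmids against the negative control, and 10.6% higher and 8.15% lower with siRNA against the plasmids. With siRNA against the negative control 7.75% were higher and 4.64% lower. Between the plasmids 0.00816% were called and 10.2% had an unadjusted p under 0.05. These shares stand beside the counts of each list below.

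Of 13 hydroxylases and glycosyltransferases 1 was higher and 2 were lower in the plasmids, 2 were higher with siRNA against the negative control and 3 were higher with siRNA against the plasmids. In the same order 21.8%, 12.4% and 18.7% of all genes were called, so these counts are not read as particular to this list. P3h1, the prolyl 3-hydroxylase that works with Crtap, was lower in the plasmids by -0.67 and higher with siRNA than in the plasmids by 1.10, and Crtap was higher with siRNA by 0.84 against the negative control and 0.55 against the plasmids. P3h3 was lower in the plasmids by -0.78, and P4ha2, a prolyl 4-hydroxylase subunit, was higher with siRNA than in the plasmids by 0.68. P3h2 was higher in the plasmids by 0.93 and with siRNA by 0.85, from a negative control that was well above background on only part of its arrays. Of 14 chaperones and export factors 5 were lower in the plasmids, led by Serpinh1, the collagen chaperone (-0.91), Sparc (-0.71) and Sec23a (-0.71). With siRNA 0 of 14 were called by limma against the negative control, 2 with an unadjusted p under 0.05, and Fkbp10 (0.72) and Sparc (0.66) were higher than in the plasmids.

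Of 6 proteinases and enhancers, Pcolce2, an enhancer of C-propeptide removal, was lower than in the negative control by -0.88 in the plasmids and -0.73 with siRNA. Tll1, a tolloid-like proteinase, was higher by 0.83 and 1.02, and Adamts14, an N-propeptide proteinase, was higher with siRNA than in the plasmids by 1.31. Of 5 lysyl oxidases, which cross-link the fibrils, Loxl2 was lower by -1.14 in the plasmids and -0.75 with siRNA. Loxl1 was higher with siRNA by 0.90 against the negative control and 1.15 against the plasmids, and Lox was higher against the plasmids by 0.62. Of 8 receptors, Itga11, the integrin chain for fibrillar collagen, was lower in the plasmids by -1.75 and higher with siRNA by 1.38 against the negative control and 3.14 against the plasmids. Itga1 (-1.10, with 5 of 6 plasmid arrays above background) and Adgrg6 (-0.83), a receptor of type IV collagen, were lower in the plasmids. Adgrg6 was higher with siRNA than in the plasmids by 1.02, with a usable spot in a single siRNA sample.

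Of 12 fibril-bound proteoglycans and glycoproteins 7 were lower and 1 higher in the plasmids, 3 were lower with siRNA against the negative control, and 6 were higher with siRNA against the plasmids. Omd, the leucine-rich protein of bone, was lower by -3.14 in the plasmids and -2.17 with siRNA, and higher with siRNA than in the plasmids by 0.97. Aspn was lower in the plasmids by -1.68 and with siRNA by -0.84, and Fmod was lower with siRNA by -1.25. Kera was at least 1.47-fold higher in the plasmids than in a negative control not well above background. Lum (1.52), Thbs2 (1.49) and Thbs1 (1.10) were the furthest above the plasmids with siRNA.

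Of 16 laminins and other basement membrane partners of type IV collagen, 1 was higher and 2 lower in the plasmids, 5 were higher with siRNA against the negative control, and 6 higher and 1 lower with siRNA against the plasmids. Lama2, the laminin chain of the muscle fibre, was higher with siRNA by 1.89 and 1.69, with a usable spot in a single pcDNA3.1 sample. Lamb3 was lower in the plasmids by -1.57 and higher with siRNA by 1.70 and 3.27. Agrn, which clusters receptors at the neuromuscular junction, went against these, with 1.21 in the plasmids against the negative control and -1.43 for siRNA against the plasmids, and Nid2 was lower in the plasmids by -0.54.

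**Figure D5:**
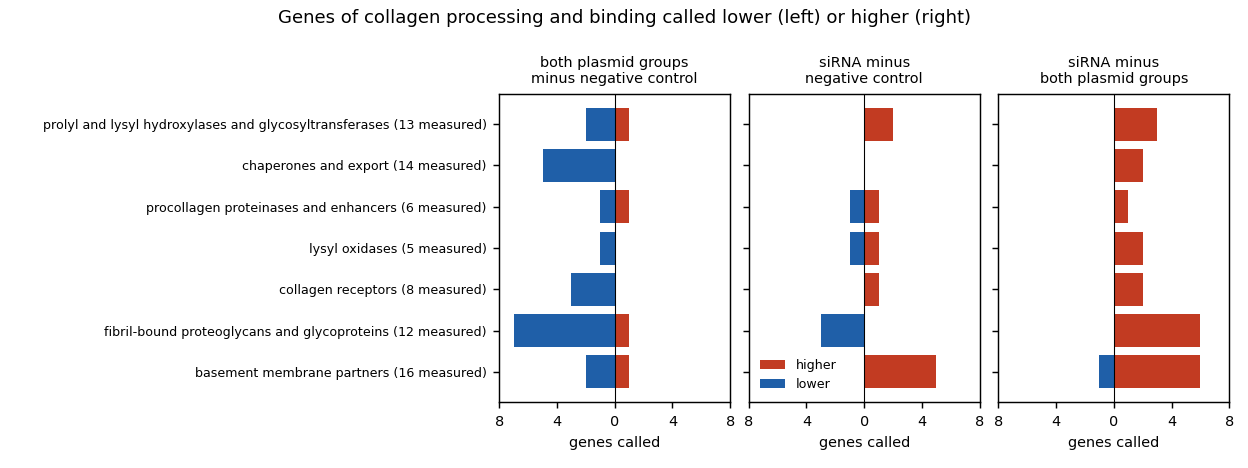
Number of genes called lower (left of 0, blue) or higher (right of 0, red) at an adjusted p under 0.05 by limma, for 7 lists of collagen partners in 3 comparisons. The plasmids against the negative control give 7 lower fibril-bound genes and 5 lower chaperones and export factors, and siRNA against the plasmids gives 6 higher fibril-bound genes and 6 higher basement membrane partners.

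Markers of other cells and stages moved with the same comparisons. All 9 myotube markers were higher with siRNA than in the negative control, with a median of 3.80, and 8 of 9 were higher than in the plasmids. Their mean log2 signal was 1.11 to 1.20 in the siRNA samples, -2.91 to -2.62 in the negative control and -2.51 to -2.30 in the plasmid samples, and Ckm alone was not well above background on all negative control arrays. Actc1 (7.15), Myh3 (7.05) and Mb (4.45) led this list. In the plasmids against the negative control 5 of the 9 were higher and 1, Acta1 (-2.81), was lower. The siRNA differences of the collagen genes therefore stand beside a rise of myotube genes, whose part in them was not tested.

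In the plasmids against the negative control, 4 of 8 measured fibroblast and smooth muscle markers were lower and 0 higher: Tagln (-3.24), Postn (-2.88), Cnn1 (-2.41) and Pdgfrb (-0.95). Their mean log2 signal was 2.15 to 2.68 in the negative control, 0.96 to 1.39 in the plasmid samples and 2.15 to 2.50 with siRNA. The mean of siRNA replicates 1 and 3, 2.15, leaves out Postn, which had no usable spot there. With siRNA against the plasmids 4 of the markers were higher. Dpt of this list was not well above background on all arrays of any group. The part of these genes in the lower plasmid signals of the collagens was not tested. Of 6 myoblast markers 2 were lower in the plasmids, and with siRNA 3 were higher and 1 lower than in the negative control and 4 higher than in the plasmids. Among these markers, all well above background in the negative control, Myf5 was lower by -4.62 in the plasmids, where 3 of 6 arrays were well above background, and -2.87 with siRNA, Myod1 was higher with siRNA by 2.29, and 5 or 6 were well above background in each group.

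Of the cartilage markers Cnmd and Matn1 were not well above background in any group, and Matn3 was at least 2.30-fold higher with siRNA than in the plasmids (limma, adjusted p = 0.0227), the only call among 4 measured. Matn3 passed the filter only through siRNA, so that its being measured and this difference are not separate facts. Mkx of the tendon list was lower with siRNA by -1.44 against the negative control, and Tnmd was not well above background in any group. Of 5 measured bone markers, Alpl was higher by 0.66 in the plasmids and 0.68 with siRNA, and Dmp1 was higher with siRNA by 1.63 from a negative control only partly above background. Of fat markers Adipoq was at least 1.97-fold lower in the plasmids, where 1 of 6 arrays was well above background. Adipoq passed the filter only through the negative control, so that its being measured and this difference are not separate facts. Fabp4 was higher with siRNA than in the plasmids by 1.34, and of immune markers Itgam was lower in the plasmids by -1.55. Endothelial markers had 0 of 4 called in any comparison by limma, with 2 at an unadjusted p under 0.05 in the plasmids against the negative control and 2 in siRNA against the plasmids, and 0 of 4 epithelial markers were well above background on all arrays of any group.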

How the data were processed

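One-colour arrays in 4 groups of 3 were read. Agilent Feature Extraction 11.0.1.1 gave linear spot intensities, per the file headers, with subtraction of the local background and of a spatial trend and no scaling between arrays. Other columns, per the file headers, mark saturated, outlying or uneven spots and those well above background. The authors deposited a series table of processed intensities for 30732 probes, whose scaling is not stated in these sources and whose ranks correlated with the scanner signal at 0.999895 or more.

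Control spots (1377 of 44397) and those marked as outlying were not used, and a probe is the mean of its spots. Probe accessions were looked up in a RefSeq table, where 27234 of 39429 probes matched. The log2 signal was scaled by subtracting the 75th percentile of each array. Probes well above background on all arrays of 1 group or more were kept (29610). Replicates 1 and 3 were averaged, since in 3 groups they look like repeat scans and in the negative control they differed by 0.845 times the spot noise, against 2.71 and 2.47 for the other pairs. Replicates 1 and 2 of the other groups were as close (0.952, 0.894 and 0.928 times) but stayed separate samples, so the groups were treated unevenly. One fit of limma 3.58.1 in R 4.3.3 held the 8 samples, with 4 residual and 1.90 prior degrees of freedom. Few arrays limit its precision. It was tested on simulated data.

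Replicate numbers did not pair samples: deviations of same-numbered samples correlated at -0.0358 for siRNA and the negative control and at -0.0735 for the plasmids. For the normexp alternative (offset 50) the median signal stood in for the mean signal, and the background was capped at its 99th percentile. Other alternatives were quantile and median scaling, other filters, averaged probes, the authors' values, 12 arrays as samples, a random or replicate block, fits of the compared groups only, scans and samples left out. Members, lists and tests were chosen with earlier results of these data known. Named members are all those called, with sample values for those furthest apart in each comparison and for their chain partners.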

Additional observations from a re-analysis of the deposited data

How the results depend on the processing

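The number of collagen genes called, 10 for siRNA and 12 for the plasmids against the negative control, 19 for siRNA against the plasmids and 0 between the plasmids, moved with how samples were counted and with the samples in the fit. With 12 arrays as 12 samples it was 17, 21, 24 and 1, with scans of 1 hybridisation then counted as replicates. With only the compared groups in the fit it was 1, 18, 21 and 3 in the same order. Without a filter on dim probes siRNA against the negative control gave 6, and in the first scan of the plasmid arrays the plasmids differed in 3. The fit with a replicate block gave 6, 10, 16 and 0, and the numbers do not pair the samples. Leaving out 1 sample at a time gave 5 to 18 for siRNA and 6 to 18 for the plasmids against the negative control, 8 to 21 for siRNA against the plasmids and 0 to 2 between the plasmids. Where an arm kept 1 sample, it was assumed to vary like the others. The sign of a called difference turned once: Col11a2 in siRNA against the plasmids, at 0.00335 with normexp. The cause of these shifts was not tested. Shares of all genes called are given above for the main fit only, so moves of these counts, here and above, are not read as particular to collagens. Keeping spots marked as outlying, an alternative chosen after seeing the data, gave 7, 12, 17 and 0. Without pcDNA3.1 replicate 2 no value could be had for Col1a1 and Col4a5, a filter over all 12 arrays left out members dim in a group, and the second scan gives values with no test. Signals near background limit Col2a1, Col10a1, Col11a2 and Col26a1 to bounds.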

Other observations

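Deviations of single spots from the mean of their probe were compared between arrays. Those of siRNA replicate 2 correlated at 0.518, 0.521 and 0.547 with the 3 negative control arrays and at -0.274 and -0.292 with the other siRNA arrays. Replicates 1 and 3 of siRNA correlated with each other at 0.987. Among the collagens, Col4a6 gave 2.28 in siRNA replicate 2 and 0.14 in the average of the other siRNA arrays, and Col2a1 gave -8.26 and -5.71.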
